A study of Mus musculus with 53 samples.

Results

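The maturation of the mouse cornea was followed by setting whole corneas of postnatal day P28 against whole corneas of embryonic day E15.5. Both groups were wildtype CB6 mice with no treatment in the labels, and each had 3 arrays. These 6 arrays were chosen by their titles out of 53 arrays in 18 groups, and the other 15 cornea arrays of the same table (E14.5, E17.5, P3, P7 and P14) served for the course between both ages. E15.5 was taken as the start because the E14.5 arrays carry lens and blood transcripts. Per the series text, the cornea arrays came from an earlier study of the laboratory. The study measured total RNA of epithelial tissues on Affymetrix arrays, and cornea was on Mouse Gene ST arrays, which read transcripts along their length. All 19938 named genes of that array were tested, each by its brightest probe set. Levels are given as log2(intensity + 16), on which 4 is the floor, and differences are P28 minus E15.5 on this scale.

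The cornea is the transparent front of the eye. A stratified, non-keratinized epithelium lies on a stroma of ordered collagen fibrils kept by keratocytes, and a single-layered endothelium pumps fluid out of the stroma. In the embryo, cells of the neural crest move between the surface ectoderm and the lens and lay down the stroma under fused eyelids. After birth the lids open, the epithelium adds layers and takes up its mucin-covered surface, and the keratocytes become quiet. Whole corneas hold all of these cells, so fewer cells of a type and less RNA per cell cannot be told apart in any value below.

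The labelled tissue was borne out by its defining markers. Krt12, the keratin of corneal epithelium, had 14.00, 13.94 and 14.03 in P28 corneas, against 12.75, 13.37 and 13.37 in E15.5 corneas, and Kera, the keratan sulfate proteoglycan keratocan of the stroma, had 11.93, 12.36 and 12.16 in P28 corneas, against 12.96, 12.85 and 13.07 in E15.5 corneas. Both stood far above the floor on all 6 arrays. Neither was called changed, though for both the arrays of the ages did not overlap. Arrays of 1 age differed by an SD of 0.27 to 0.33 log2 units over all genes at P28 and of 0.29 to 0.37 at E15.5, with Pearson's r of 0.977 to 0.984 and of 0.970 to 0.980 across genes. Some arrays held more transcripts of neighbouring tissues. The summed intensity of 22 lens genes was 58540 on P28 replicate 2, against 10900 and 12370 on the other P28 arrays and 5163 to 5903 at E15.5. The summed intensity of 31 skeletal muscle genes was 48240 on E15.5 replicate 1, against 8437 and 13530 on the other E15.5 arrays, and 6433 to 6661 at P28. The same E15.5 array led in pigment cell and vessel genes. The sexes were mixed at both ages: Xist, the RNA of the inactive X chromosome, had 12.47, 6.06 and 5.81 in P28 corneas, against 5.58, 8.72 and 12.65 in E15.5 corneas, and the Y-linked Kdm5d had 4.68, 10.27 and 10.37 in P28 corneas, against 10.16, 10.06 and 6.05 in E15.5 corneas. Arrays of 1 age therefore were not all of the same animal, but the labels do not say how animals or litters were shared out. The p-values measure the spread between arrays of a group, which may be in part technical. That spread was estimated per gene over all 27 arrays of the 9 groups, so other ages, trachea and lung also enter it.

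**Figure D1:**
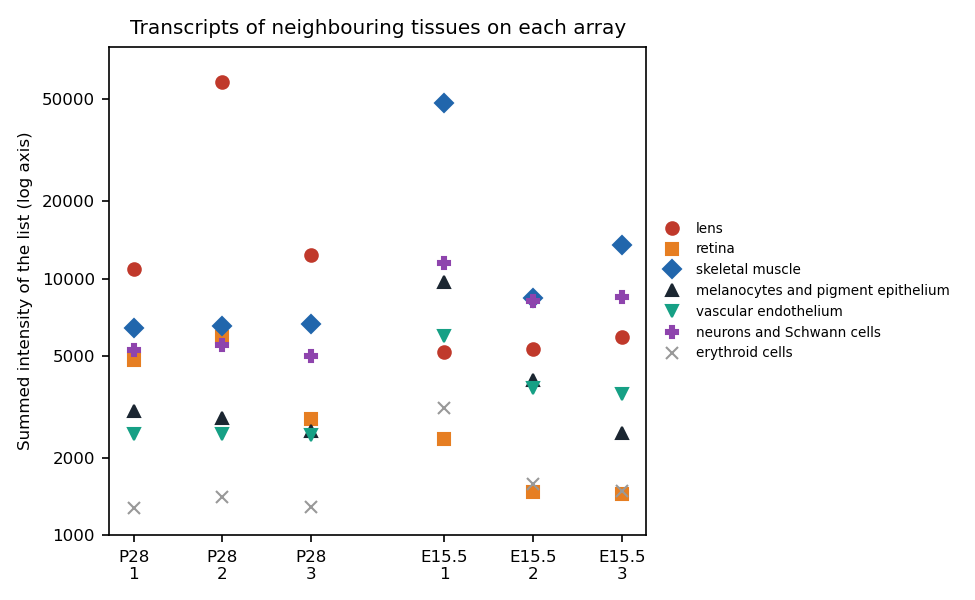
Summed linear intensity (log axis) of the genes of 7 lists of neighbouring tissues on each of the 3 P28 and 3 E15.5 arrays. Lens genes reached 58540 on P28 replicate 2 and skeletal muscle genes 48240 on E15.5 replicate 1; heights of different lists are not comparable.

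Between E15.5 and P28, 2052 of 19938 genes were called changed (10.3%), by a limma fit with an adjusted p below 0.05 and a change of 2-fold or more. Of these, 976 were higher at P28 (4.9% of all genes) and 1076 were lower (5.4%). Genes of the epithelial surface, of detoxification, of the circadian clock and of sterol synthesis were among the risers, and collagens, collagen-modifying enzymes, embryonic matrix and fetal growth genes among the fallers. At least 4-fold changes were reached by 275 risers and 361 fallers, and at least 16-fold by 36 and 23. The arrays of both ages did not overlap for 2023 of the 2052 called genes. The median change over all genes was -0.05. With no fold limit 28.2% of all genes passed, at an unadjusted p under 0.05 17% were higher and 20.1% lower, and 42.9% had a higher mean at P28. A further probe set was there for 92 called genes, and its direction was that of the brightest one for 96.7% of them.

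**Figure D2:**
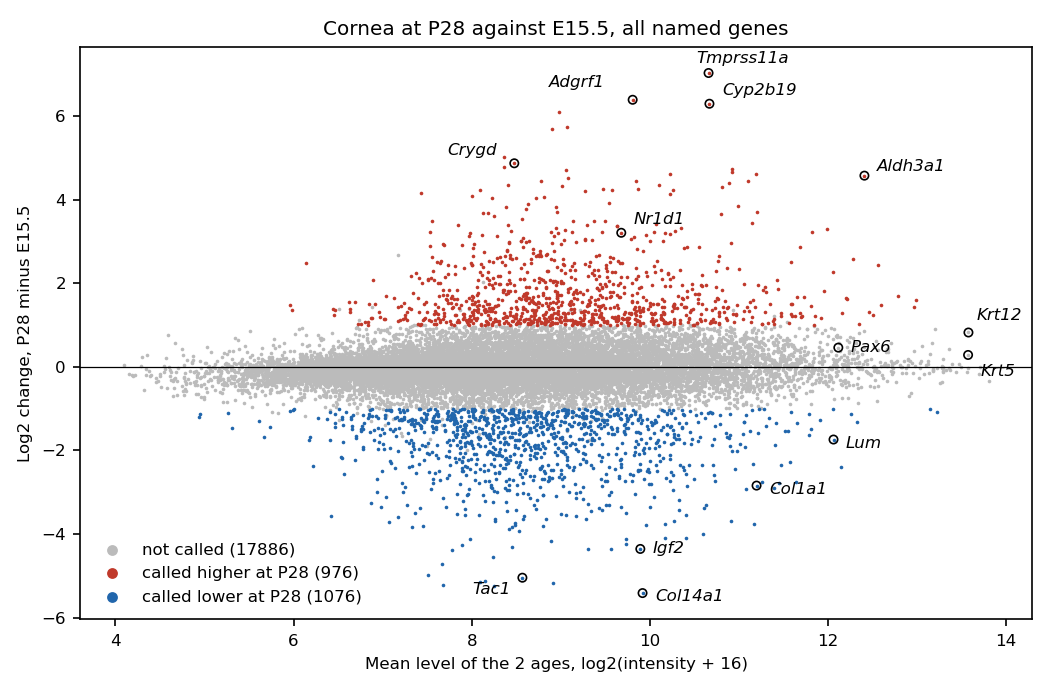
Change between P28 and E15.5 (vertical axis, log2) against the mean level of both ages (horizontal axis, log2(intensity + 16)) for all 19938 genes, with 976 called higher in red, 1076 called lower in blue and the others grey. Tmprss11a and Cyp2b19 stand at the top, Col14a1 and Tac1 at the bottom, and Krt12, Krt5 and Pax6, at high levels, have changes of 0.82, 0.29 and 0.46 and were not called.

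Of the 15 largest rises, 4 were of the surface list described below, Tmprss11a, Tmprss11e, Tmprss11g and Psca. Tmprss11a, a membrane-anchored serine protease, had 14.12, 14.21 and 14.21 in P28 corneas, against 8.59, 6.45 and 6.38 in E15.5 corneas. The rise was 7.04 on the log2 scale with a standard error of 0.70, 132-fold, adjusted p = 6.01e-08, and 217-fold without E15.5 replicate 1, the 1 E15.5 array with a level above 8. Tmprss11e, of the same protease family, had 11.89, 12.27 and 11.94 in P28 corneas, against 5.83, 5.98 and 5.97 in E15.5 corneas (68.9-fold, adjusted p = 1.44e-14). All 3 P28 arrays lay about 6 log2 units above all 3 E15.5 arrays. Cyp2b19, a cytochrome P450 known from mouse keratinocytes as an arachidonic acid epoxygenase, had 13.49, 14.03 and 13.94 in P28 corneas, against 7.49, 7.52 and 7.54 in E15.5 corneas (79-fold, adjusted p = 1.71e-16). Its level stayed between 7.51 and 8.17 from E17.5 to P14, so nearly all of its rise lay between P14 and P28. Adgrf1, an adhesion G protein-coupled receptor, had 14.03, 13.79 and 11.20 in P28 corneas, against 6.63, 6.67 and 6.52 in E15.5 corneas (84.3-fold, adjusted p = 7.98e-09). P28 replicate 3 was the lowest of the 3, and the rise was 158-fold without it. Aldh3a1, a crystallin-like enzyme of the corneal epithelium that clears aldehydes and absorbs ultraviolet light, had 14.70, 14.70 and 14.70 in P28 corneas, against 9.75, 10.14 and 10.46 in E15.5 corneas. The 3 equal P28 values are the top of the quantile-normalized scale, which is the same on every array, so the size of its rise and its rank here are set by that ceiling. With the values as deposited its change was 4.37 (adjusted p = 8.07e-15).

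Other large rises were those of Samd9l, an interferon-inducible antiviral gene (11.76 ± 0.48 at P28 and 6.05 ± 0.13 at E15.5), of Cyp3a13, a drug-metabolizing cytochrome P450 (10.88 ± 0.41 at P28 and 5.85 ± 0.17 at E15.5), and of Osmr, the receptor chain for oncostatin M (10.76 ± 0.26 at P28 and 5.97 ± 0.16 at E15.5; SD, n = 3 each). Ceacam1, a cell adhesion molecule of apical membranes, had 11.57, 11.71 and 10.95 in P28 corneas, against 6.79, 6.68 and 6.63 in E15.5 corneas (26.2-fold, adjusted p = 1.06e-10). Rdh18-ps, Gm9573 and Erich5 completed the list of the 15 largest rises together with surface and lens genes described below. None of the 15 had a higher mean in E18.5 trachea or lung than in P28 cornea, which their choice by a rise to P28 favours. P28 replicate 3 was the lowest of the 3 P28 arrays in 591 of the 976 risers.

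Of the 15 largest falls, Col14a1 was on the collagen list, Fbn2 and Vcan on that of embryonic matrix, Igf2 and Sox11 on that of fetal growth, and the others on none. Col14a1, a collagen that lies on the surface of fibrils, had 8.00, 7.00 and 6.64 in P28 corneas, against 12.49, 12.54 and 12.84 in E15.5 corneas. The fall was -5.42 on the log2 scale with a standard error of 0.44, 42.7-fold, adjusted p = 2.29e-09, and both ages were far apart. Fbn2, the fibrillin of embryonic microfibrils, had 6.53, 5.96 and 6.49 in P28 corneas, against 11.72, 11.23 and 11.55 in E15.5 corneas (36.1-fold, adjusted p = 2.13e-10). Vcan, the large proteoglycan versican of loose embryonic matrix, had 6.16, 5.70 and 6.00 in P28 corneas, against 10.75, 10.14 and 10.66 in E15.5 corneas (23.6-fold, adjusted p = 1.17e-08). Tac1, the precursor of the neuropeptide substance P, had 5.72, 6.81 and 5.61 in P28 corneas, against 10.91, 11.02 and 11.35 in E15.5 corneas (33.1-fold, adjusted p = 7.48e-09). Its mean was still 10.15 at P14. S1pr3, a receptor for sphingosine 1-phosphate, averaged 5.06 ± 0.44 at P28 and 10.29 ± 0.23 at E15.5 (37.6-fold, adjusted p = 7.17e-11). Krtdap, a secreted protein of differentiating keratinocytes, had 5.23, 6.00 and 5.56 in P28 corneas, against 10.57, 10.70 and 10.86 in E15.5 corneas (34.7-fold, adjusted p = 2.52e-11), so not every epithelial gene rose. Lrrn1, Bex1, Prss35, Lrrc17 and 6330403K07Rik fell by 4.35 to 5.24 log2 units. Ptx3, a secreted pattern-recognition protein, fell by 4.72 and the chemokine Pf4 by 4.39. Of the 15 largest fallers, 14 had a higher mean in E18.5 trachea than in P28 cornea, and 10 in E18.5 lung. Their choice by a fall to P28 favours such counts. Compared with E15.5 cornea, the mean was lower in trachea for 11 of the 15 and in lung for all 15.

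**Figure D3:**
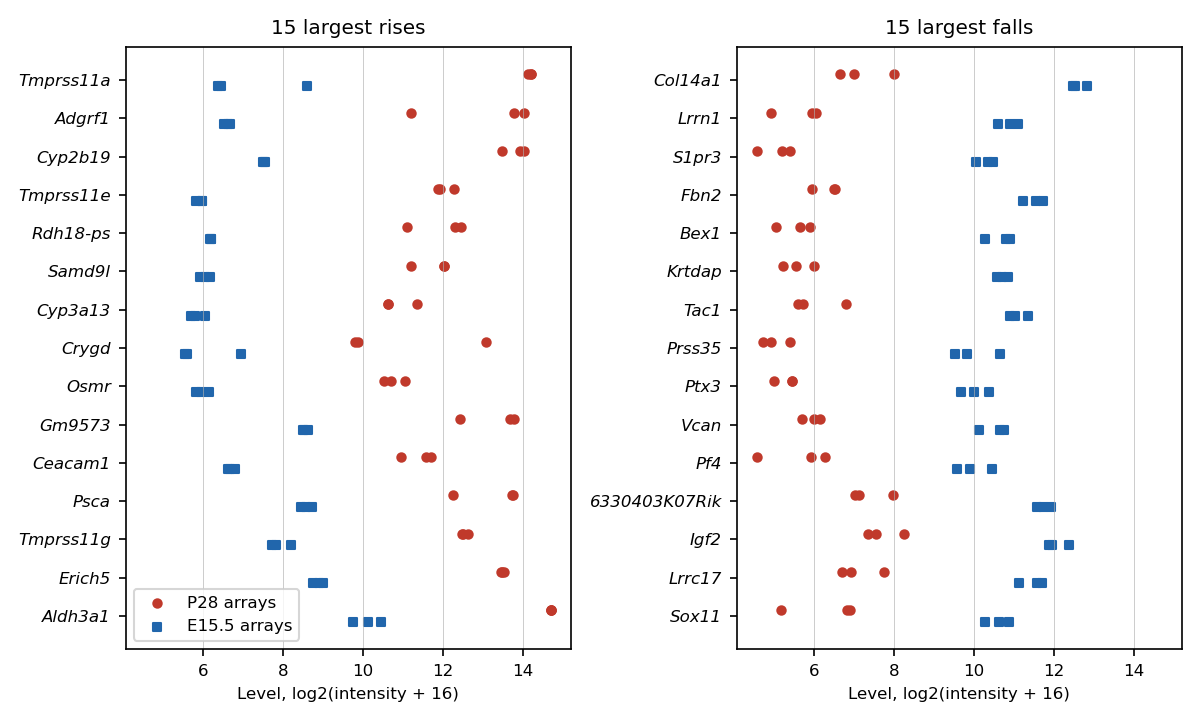
Level of each P28 array (red circles) and each E15.5 array (blue squares) for the 15 largest rises and the 15 largest falls, in log2(intensity + 16). The arrays of both ages do not overlap for any of the 30 genes, which the choice of genes required, and Crygd shows 1 P28 array at 13.08 above the other P28 arrays.

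The surface list, membrane mucins with the enzymes and proteases of the outer epithelial cells, had 18 of 24 measured genes higher and 2 lower at P28, with a median change of 2.79. Like the other lists, it was chosen with earlier results of these data known, and 6 of its risers are neighbouring Tmprss11 genes. Membrane mucins carry the tear film, and the proteases of the Tmprss11 family are known from airway and squamous epithelia. Psca, a lipid-anchored protein of the Ly6 family, had 13.74, 13.75 and 12.25 in P28 corneas, against 8.58, 8.46 and 8.73 in E15.5 corneas (25.2-fold, adjusted p = 1.47e-06). Cyp2f2, a cytochrome P450 known from mouse airway club cells, had 13.07, 11.98 and 11.84 in P28 corneas, against 8.14, 8.33 and 7.98 in E15.5 corneas (17.8-fold, adjusted p = 8.91e-09). For both, the P28 arrays lay above the E15.5 arrays, and such a gap was seen for nearly all called genes. Of the mucins, named here after their values were seen, Muc4 had 13.02, 12.96 and 11.91 in P28 corneas, against 8.43, 9.40 and 9.08 in E15.5 corneas, a 12.6-fold rise. Muc15, Muc20 and Muc1 rose 6.35-, 6.15- and 2.56-fold, and Muc16 had 5.82, 5.75 and 5.57 in P28 corneas, against 5.74, 6.30 and 5.89 in E15.5 corneas. Muc20 was lowest on P28 replicate 3 and rose 9.23-fold without it. Galnt5 and C1galt1, glycosyltransferases that start and extend mucin-type sugars, fell 2.77- and 2.44-fold, C1galt1 not past the fold limit without P28 replicate 3 (1.92-fold). Lypd3 and Ly6d were not called, with changes of 0.33 and 0.22.

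The Tmprss11 genes lie side by side on mouse chromosome 5. In the gene order of RefSeq on GRCm38.p6, the 7 measured members ran c, d, a, g, f, b and e. The 6 from Tmprss11d to Tmprss11e rose, by 4.46, 7.04, 4.62, 2.91, 3.41 and 6.11, and Tmprss11c at the end of the row had 6.97, 7.05 and 6.93 in P28 corneas, against 6.94, 7.05 and 7.22 in E15.5 corneas (adjusted p = 0.721). Outside the row, Uba6 and Gnrhr on 1 side and Ythdc1 and Ugt2b34 on the other had changes of 0.67, 0.14, -0.14 and 0.15, none of them called. Tmprss11b, c and f and the flanking genes were added after their values were seen. Near-identical stretches of such family members can share probe signal.

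Promoters of 5 of the 6 risen Tmprss11 genes are given in the RefSeq promoter set of GRCm38.p6, from 250 bases before to 50 after the start. Tmprss11e had no entry. The pattern AACNNGTT is a degenerate form of the site known for grainyhead-like factors and the same on both strands. It leaves the middle bases open, so a match need not hold those of the known site. It was in 3 of these 5 genes, and in 4.2% of all 32851 promoters. The stretches that hold it are shown to let the 3 promoters be read side by side, with the matches in capitals, on the minus strand at chr5:86469107-86469214, chr5:86518590-86518706 and chr5:86676381-86676488.
Tmprss11a: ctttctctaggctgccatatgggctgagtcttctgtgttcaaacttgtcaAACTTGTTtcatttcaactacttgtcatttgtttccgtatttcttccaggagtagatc
Tmprss11g: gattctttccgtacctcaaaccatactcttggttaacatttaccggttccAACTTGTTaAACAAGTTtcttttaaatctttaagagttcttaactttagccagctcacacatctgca
Tmprss11b: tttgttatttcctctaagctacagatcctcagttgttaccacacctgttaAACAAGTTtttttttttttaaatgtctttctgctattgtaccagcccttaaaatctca
Tmprss11g holds 2 matches, 1 base apart. All matches shown read AACTTGTT or its reverse complement AACAAGTT. Tmprss11d and Tmprss11f held TGANTCA, the core of the AP-1 site, in place of it, as did 7.81% of all promoters. In all, 6 patterns were searched on both strands after some of these promoters had been looked at, and a match is a description of letters only. Here and for the lists below, a gene counted if any of its promoters matched. The share of all promoters counts each promoter singly, so the units differ. Of the grainyhead-like genes themselves, Grhl1 rose 2.67-fold, and Grhl3 had 10.38, 10.39 and 10.36 in P28 corneas, against 9.15, 9.85 and 9.76 in E15.5 corneas (1.73-fold, adjusted p = 0.146). Grhl3 was not called here, but passed both limits with the values as deposited (a change of 1.02, adjusted p = 0.0284). Whether these factors act on the Tmprss11 genes was not tested. Tmprss11c, which was not called, was left out of the count of Tmprss11 genes with a match.

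Of 14 genes that mark corneal epithelium, 9 rose and 0 fell (1 was lower at an unadjusted p under 0.05), with a median change of 1.63, and 12 of the 14 had an adjusted p under 0.05, against 28.2% of all genes. Slurp1, a secreted Ly6 protein known to keep the mouse cornea free of leukocytes, had 12.43, 12.33 and 12.38 in P28 corneas, against 7.97, 8.37 and 8.11 in E15.5 corneas (18.7-fold, adjusted p = 4.18e-12). It was 9.01 at P14, so most of its rise fell in the last step. Gsto1, a glutathione transferase, and Tkt, the transketolase abundant in mouse cornea, rose 9.38- and 4.88-fold. The keratins of the layer were not called. Krt12 had a change of 0.82 (1.77-fold, adjusted p = 0.00596), and the basal keratin Krt5 of 0.29 (adjusted p = 0.684). Krt15, a basal keratin known from limbal cells, had 12.91, 12.48 and 12.32 in P28 corneas, against 13.04, 13.42 and 13.31 in E15.5 corneas, a change of -0.69 (adjusted p = 0.00399) below the fold limit. Its P28 arrays all lay below the E15.5 arrays.

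Among the factors that control epithelial genes, 8 of 35 rose and 2 fell, or 12 and 2 with the values as deposited or with median scaling. Elf3, an Ets factor of differentiating epithelia, had 10.48, 10.54 and 9.78 in P28 corneas, against 7.41, 7.94 and 8.10 in E15.5 corneas (5.46-fold, adjusted p = 1.52e-07). Klf4, a Krüppel-like factor needed for the mouse corneal epithelium, had 11.01, 11.08 and 11.83 in P28 corneas, against 8.92, 9.12 and 9.23 in E15.5 corneas (4.65-fold, adjusted p = 3.01e-05). Ehf, an Ets factor that promotes epithelial differentiation, had 12.48, 12.80 and 12.42 in P28 corneas, against 10.44, 11.24 and 11.01 in E15.5 corneas (3.19-fold, adjusted p = 3.03e-07). For these 3 the arrays of both ages did not overlap, as for 2023 of the 2052 called genes. Hopx, a homeodomain protein without DNA binding of its own, rose 6.89-fold and Ovol1, a zinc finger repressor of stratified epithelia, 2.36-fold. Pax6, the master regulator of eye development, had 12.32, 12.29 and 12.44 in P28 corneas, against 11.40, 12.15 and 12.10 in E15.5 corneas and was not called (1.38-fold, adjusted p = 0.168), and Trp63, which keeps basal cells, had a change of 0.55 (adjusted p = 0.396). Tfap2b, an AP-2 factor of the neural crest, fell 5.54-fold, and Id3, an inhibitor of helix-loop-helix factors, 2.65-fold.

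Of 23 genes of suprabasal keratins and the squamous envelope, 10 rose and 0 fell. At an unadjusted p under 0.05, 1 gene was lower. Krt6b, a keratin of activated and mucosal epithelia, had 13.17, 13.01 and 12.70 in P28 corneas, against 7.95, 8.97 and 9.05 in E15.5 corneas (19.7-fold, adjusted p = 4.64e-11). Krt4, the keratin of wet stratified surfaces, had 10.52, 9.85 and 9.53 in P28 corneas, against 6.62, 6.19 and 6.06 in E15.5 corneas (12.8-fold, adjusted p = 0.000169). Scel, an envelope precursor, and Csta1, a protease inhibitor of the envelope, rose 5.12- and 3.92-fold, and Krt78 and Krt6a 3.47- and 3.08-fold. The plakin crosslinkers Ppl and Evpl and the envelope protein Sprr1a were not called, with changes of 0.71, 0.60 and 0.21. Of 28 junction genes, 6 rose and 1 fell, or 10 and 1 with the values as deposited. Cldn7, a tight junction protein, had 12.07, 12.15 and 11.87 in P28 corneas, against 9.14, 9.72 and 9.61 in E15.5 corneas (5.82-fold, adjusted p = 1.24e-05), and Cldn1, of the same claudin family, fell 3.35-fold and averaged 9.22 ± 0.37 at P28 and 10.97 ± 0.27 at E15.5. Dsc3, a desmosomal cadherin, and Ocln, a tight junction protein, rose 3.19- and 2.44-fold. The tight junction adaptor Cgn and the splicing regulator Esrp1 rose 2.07- and 2.5-fold, and neither was called without E15.5 replicate 1. In the basal layer, 2 of 14 genes rose and 1 fell (14.3% and 7.14%, against 4.9% and 5.4% of all genes). Itga6, the integrin chain of hemidesmosomes, and the laminin chain Lama3 were 4.62- and 2.86-fold higher. Dst, a hemidesmosomal plakin, was 2.14-fold lower, or 1.97-fold without P28 replicate 2.

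**Figure D4:**
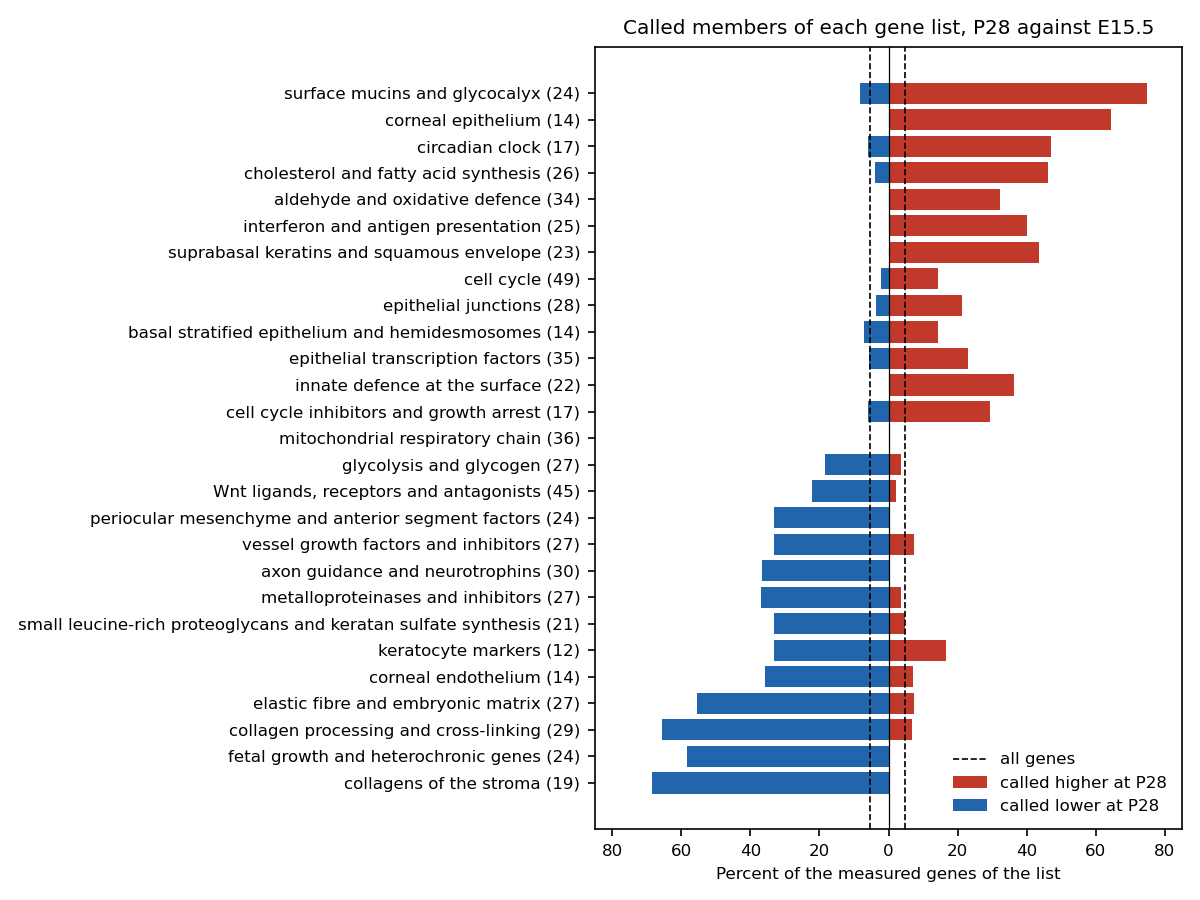
Percent of the measured genes of each list (number in parentheses) called higher (red, to the right) or lower (blue, to the left) at P28, ordered by the list's median change. Dashed lines mark the 4.9% and 5.4% over all genes. Surface genes reached 75.0% higher and stromal collagens 68.4% lower. The lists were chosen with earlier results of these data known.

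Of 34 enzymes of aldehyde and oxidative defence, which protect the cornea from light and oxygen, 11 rose and 0 fell (3 were lower at an unadjusted p under 0.05). Aldh1a1, a retinaldehyde dehydrogenase that is also abundant in keratocytes, had 11.31, 11.81 and 11.85 in P28 corneas, against 9.09, 8.26 and 7.95 in E15.5 corneas (9.37-fold, adjusted p = 2.75e-05). Gsta3, a glutathione transferase, had 11.85, 11.48 and 11.25 in P28 corneas, against 7.60, 9.13 and 8.41 in E15.5 corneas (8.88-fold, adjusted p = 1.88e-08). Nqo1, a quinone reductase induced by oxidants, and Gstm1 rose 4.27- and 4.14-fold. Sod1, the cytosolic superoxide dismutase, was not called, with a change of -0.45. In sterol and fatty acid synthesis, 12 of 26 genes rose and 1 fell. Idi1, an enzyme of isoprenoid synthesis, had 10.53, 10.83 and 10.37 in P28 corneas, against 8.60, 8.76 and 8.41 in E15.5 corneas (3.97-fold, adjusted p = 6.04e-05), and Fdps, the farnesyl diphosphate synthase, 11.74, 11.79 and 11.59 in P28 corneas, against 9.63, 9.90 and 9.85 in E15.5 corneas (3.77-fold, adjusted p = 5.63e-09). Nsdhl, Sc5d and Msmo1, enzymes of the late sterol pathway, rose 3.91-, 3.64- and 3.59-fold, and Scd1, a fatty acid desaturase, 4.47-fold. Elovl4, which makes very long fatty acids, fell 3.13-fold.

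Central energy supply was followed by 2 lists. Of 36 subunits of the respiratory chain 0 were called in either direction, with 10 higher and 4 lower at an unadjusted p under 0.05 (17% and 20.1% of all genes) and changes between -0.70 and 0.69. Of 27 genes of glycolysis and glycogen, 1 rose and 5 fell, or 3 without E15.5 replicate 3. Slc2a1, the main glucose transporter of barrier cells, had 10.01, 9.67 and 10.17 in P28 corneas, against 11.47, 11.89 and 12.18 in E15.5 corneas (3.73-fold, adjusted p = 2.89e-06). Slc2a3, a second glucose transporter, fell 3.46-fold, and Pygl, which breaks down glycogen, rose 2.88-fold. The falls of Pfkl and Gys1 (2.29- and 2.04-fold) were not past the fold limit without E15.5 replicate 3 (1.98- and 1.70-fold), nor that of Ldhb (2.05-fold) without P28 replicate 3 (1.82-fold).

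The circadian clock is a loop in which Arntl and Clock drive their own repressors. Of 17 clock genes 8 rose and 1 fell (2 fell without P28 replicate 2), with a median change of 1.00. Nr1d1, a repressor of Arntl, had 11.33, 10.86 and 11.66 in P28 corneas, against 8.01, 8.12 and 8.08 in E15.5 corneas (9.27-fold, adjusted p = 6.98e-09). Per3, of the repressing period family, had 9.79, 9.59 and 10.10 in P28 corneas, against 7.25, 7.27 and 7.55 in E15.5 corneas (5.54-fold, adjusted p = 2.78e-12). Nfil3, a repressor that binds the same sites as Dbp, had 7.97, 7.37 and 7.17 in P28 corneas, against 10.27, 10.02 and 10.37 in E15.5 corneas (6.57-fold, adjusted p = 6.66e-10). The arrays of both ages lay apart for all 3, as for nearly all called genes. Bhlhe40, Nr1d2, Dbp and Arntl rose 4.17-, 3.54-, 3.21- and 2.77-fold. Rora, an activator of Arntl, and Cry1, a repressor, had changes of 1.00 (1.996-fold) and -0.95 (1.93-fold), just under the fold limit, and Tef of 0.28. Arntl and its repressor Nr1d1 both rose. The labels give no hour of collection, so age and hour cannot be told apart for these genes. The E-box CACGTG was in 5 of 15 clock genes with a promoter entry, against 7.15% of all promoters. The 5 were Bhlhe41, Ciart, Cry1, Per1 and Tef, and none of the risers named above was among them. Cry1 and Tef were not called, so the pattern was not limited to genes that rose. The D-box form TTANGTAA was in 1 of the 15 genes, Per3, against 2.32%. The sterol element TCACNCCAC was in 1 of 20 genes of the sterol list with a promoter entry, against 1.24% of all promoters.

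Interferon response and antigen presentation had 10 of 25 genes higher and 0 lower (1 lower at an unadjusted p under 0.05), with a median change of 0.73. Psmb8, a subunit of the immunoproteasome, had 11.21, 10.92 and 9.85 in P28 corneas, against 7.28, 8.02 and 7.72 in E15.5 corneas (7.95-fold, adjusted p = 6.4e-07), and Psmb9, of the same complex, 10.79, 10.59 and 10.14 in P28 corneas, against 7.86, 8.05 and 8.22 in E15.5 corneas (5.52-fold, adjusted p = 2.74e-08). Ifit1, an antiviral protein that binds foreign RNA, had 10.86, 9.32 and 7.86 in P28 corneas, against 6.47, 6.54 and 7.06 in E15.5 corneas (6.3-fold, adjusted p = 6.7e-05). The 3 P28 arrays of Ifit1 spread over 3 log2 units, highest on replicate 1, and the rise was 3.72-fold without replicate 1 and 10.6-fold without replicate 3. Ifit3 had 11.64, 10.56 and 9.27 in P28 corneas, against 8.97, 7.99 and 8.57 in E15.5 corneas (3.94-fold, adjusted p = 0.000994), or 6.02-fold without replicate 3. H2-Aa, a class II antigen chain of antigen-presenting cells, had 9.49, 8.48 and 7.67 in P28 corneas, against 7.40, 7.38 and 7.04 in E15.5 corneas (2.42-fold, adjusted p = 0.00079), and was 1.74-fold without P28 replicate 1. Without that array, 6 of the 25 genes rose. B2m, the light chain of class I molecules, was not called, with a change of -0.34.

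The pattern of GAAA, any 2 bases and GAAA again is the core of the element through which interferon acts. It was in 8 of 20 genes of this list with a promoter entry, against 3.44% of all promoters. Both Ifit promoters hold 2 matches each, which read on the opposite strand of the stretches shown, at chr19:34640735-34640863 and chr19:34583323-34583466 on the plus strand of GRCm38.p6.
Ifit1: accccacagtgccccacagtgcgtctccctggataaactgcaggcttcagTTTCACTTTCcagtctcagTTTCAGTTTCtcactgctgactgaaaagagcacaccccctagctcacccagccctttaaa
Ifit3: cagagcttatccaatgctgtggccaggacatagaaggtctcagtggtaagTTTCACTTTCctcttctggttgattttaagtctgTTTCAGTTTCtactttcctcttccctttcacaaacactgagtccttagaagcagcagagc
Of the other 6 genes with a match, B2m, Ifitm3 and Psme1 were not called, so the pattern was not limited to genes that rose.

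Of 22 surface defence genes, 8 rose and 0 fell (1 lower at an unadjusted p under 0.05). Without P28 replicate 1, P28 replicate 2, E15.5 replicate 1 or E15.5 replicate 2, 6 rose, and without E15.5 replicate 3, 7 did. Pglyrp1, a secreted protein that binds bacterial cell walls, had 12.03, 12.22 and 10.55 in P28 corneas, against 7.02, 7.68 and 7.35 in E15.5 corneas (19-fold, adjusted p = 1.69e-09). Il18, an epithelial cytokine stored as a precursor, had 10.94, 11.02 and 10.29 in P28 corneas, against 6.87, 6.52 and 6.67 in E15.5 corneas (16.6-fold, adjusted p = 4.71e-14), and Il1a, an alarm cytokine of keratinocytes, 9.22, 9.60 and 9.11 in P28 corneas, against 5.54, 5.65 and 6.23 in E15.5 corneas (11.3-fold, adjusted p = 3.43e-10). Il1a had its largest step between P14 (mean 6.20) and P28. Wfdc2, a secreted protease inhibitor of mucosal surfaces, rose 8.28-fold, and the receptors Tlr4, for bacterial lipopolysaccharide, and Tlr3, for double-stranded RNA, 6.34- and 6.06-fold.

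In the stroma, 13 of 19 collagen genes fell, 0 rose (and 0 were higher at an unadjusted p under 0.05), and the median change was -2.44. Col1a1, a chain of the main fibril collagen of the stroma, had 9.88, 9.39 and 10.07 in P28 corneas, against 12.47, 12.60 and 12.79 in E15.5 corneas (7.17-fold, adjusted p = 4.13e-06). Col1a2, its partner chain, had 9.98, 9.87 and 10.35 in P28 corneas, against 12.73, 12.78 and 13.00 in E15.5 corneas (6.81-fold, adjusted p = 1.43e-05). The chains of type I collagen thus fell to a like degree. Col3a1, a fibril collagen of embryonic and healing tissue, had 8.92, 8.29 and 8.04 in P28 corneas, against 12.04, 12.03 and 12.27 in E15.5 corneas (13-fold, adjusted p = 1.38e-07). Col24a1, a fibril collagen, and Col6a3, a chain of beaded filaments, fell 9.05- and 6.76-fold. Col2a1, Col9a1 and Col27a1, known from cartilage, were not called, with changes of -0.48, -0.87 and -0.48.

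Many enzymes that make collagen were lower as well: 19 of 29 genes of processing and cross-linking were lower and 2 higher. P3h1, which hydroxylates proline in collagen chains, had 6.64, 6.38 and 6.42 in P28 corneas, against 10.32, 10.09 and 10.67 in E15.5 corneas (14.7-fold, adjusted p = 7.19e-09). Lox, which cross-links the fibrils, had 8.00, 8.23 and 7.94 in P28 corneas, against 11.36, 10.75 and 11.07 in E15.5 corneas (8.03-fold, adjusted p = 4.76e-05), and Serpinh1, the collagen chaperone of the endoplasmic reticulum, 9.48, 8.84 and 9.16 in P28 corneas, against 11.83, 11.71 and 11.96 in E15.5 corneas (6.38-fold, adjusted p = 1.5e-08). Creb3l1, a factor that drives collagen genes, P4ha3, a prolyl 4-hydroxylase, and Fkbp14, a folding enzyme, fell 12.6-, 10.4- and 4.88-fold. General folding enzymes were not called, with changes of -0.90 for Ppib and -0.72 for P4hb. Pcolce2, an enhancer of procollagen cleavage, had 10.60, 10.43 and 10.11 in P28 corneas, against 7.80, 8.14 and 7.77 in E15.5 corneas (5.58-fold, adjusted p = 4.08e-05), and P3h2, another prolyl 3-hydroxylase, rose 2.41-fold.

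Proteoglycans space the fibrils: 7 of 21 genes of the small leucine-rich family and of keratan sulfate synthesis fell and 1 rose. Lum, lumican, which shapes corneal fibrils, had 11.11, 11.29 and 11.17 in P28 corneas, against 12.81, 12.85 and 13.13 in E15.5 corneas (3.34-fold, adjusted p = 0.00695). Dcn, decorin, had 12.43, 12.75 and 12.66 in P28 corneas, against 13.25, 13.16 and 13.32 in E15.5 corneas and was not called (1.55-fold lower, adjusted p = 0.144), as Kera was not (1.75-fold lower, adjusted p = 0.279). For both, all P28 arrays lay below all E15.5 arrays. The p-values use the spread over all groups of the fit, not that of these arrays alone, so they do not show equal levels. Podn, podocan, and Ogn, osteoglycin, fell 12.5- and 5.54-fold, and Bgn, biglycan, 3.75-fold. Aspn, asporin, had 8.85, 7.22 and 6.31 in P28 corneas, against 12.09, 10.95 and 10.25 in E15.5 corneas, a 12.4-fold fall, or 20.2-fold without P28 replicate 1. Prelp, a relative that anchors basement membranes to collagen, rose 2.21-fold. Among keratocyte markers 2 of 12 rose and 4 fell. Angptl7, a secreted inhibitor of vessel growth made by keratocytes, had 10.78, 11.14 and 11.82 in P28 corneas, against 8.48, 7.38 and 7.40 in E15.5 corneas (11.2-fold, adjusted p = 1.7e-06). Thbs4, a matrix glycoprotein, fell 4.01-fold, and Cyp1b1, a cytochrome P450 of the anterior segment, 5.68-fold, or 8.85-fold without P28 replicate 1.

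Elastic and embryonic matrix genes fell in 15 of 27 cases and rose in 2. Mfap2, a microfibril protein, had 8.19, 7.92 and 8.26 in P28 corneas, against 12.18, 12.10 and 12.37 in E15.5 corneas (17.1-fold, adjusted p = 5.7e-10). Postn, periostin, had 9.20, 8.17 and 7.60 in P28 corneas, against 12.72, 11.31 and 11.03 in E15.5 corneas (10.3-fold, adjusted p = 1.52e-05), highest at E15.5 on replicate 1. Nid1, a basement membrane linker, and Fbln2 fell 4.75- and 4.29-fold. Tgfbi, a secreted adhesion protein whose human gene is mutated in stromal dystrophies, had 12.37, 12.28 and 12.74 in P28 corneas, against 10.07, 10.57 and 10.53 in E15.5 corneas (4.21-fold, adjusted p = 7.41e-06), and the hyaluronan receptor Cd44 rose 3.66-fold. Of 27 metalloproteinases and inhibitors 10 fell and 1 rose. Mmp16, a membrane-bound metalloproteinase, had 6.95, 6.57 and 6.90 in P28 corneas, against 11.53, 10.55 and 10.86 in E15.5 corneas (18-fold, adjusted p = 3.66e-11). Mmp2, a gelatinase, and Timp2, its inhibitor and cofactor, fell 4.29- and 3.33-fold, Reck, a membrane inhibitor, 4.13-fold, and Adamts12 and Adamts5 5.51- and 4.24-fold. Mmp3, stromelysin 1, rose 2.77-fold.

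Endothelial markers fell in 5 of 14 cases and rose in 1. Slc4a11, a transporter of the endothelial pump whose human gene is mutated in endothelial dystrophy, had 8.52, 7.82 and 8.79 in P28 corneas, against 7.10, 6.77 and 7.07 in E15.5 corneas (2.64-fold, adjusted p = 3.26e-05). Col8a1, a collagen of the endothelial basement membrane, had 9.16, 8.59 and 8.74 in P28 corneas, against 11.19, 11.37 and 11.40 in E15.5 corneas (5.62-fold, adjusted p = 8.13e-05), and Aqp1, a water channel, fell 2.41-fold. Cdh2, N-cadherin, fell 2.37-fold, or 1.63-fold without E15.5 replicate 1 (adjusted p = 0.271), and was also not called without P28 replicate 2 or 3. Of 27 vessel growth factors and inhibitors 9 fell and 2 rose. Vegfa, the main growth factor for vessels, had 8.24, 7.65 and 8.15 in P28 corneas, against 9.90, 10.18 and 10.00 in E15.5 corneas (4.02-fold, adjusted p = 1.62e-09), and Kdr, its receptor, 7.47, 7.32 and 7.24 in P28 corneas, against 9.76, 9.37 and 9.98 in E15.5 corneas (5.12-fold, adjusted p = 2.29e-09). Epas1, a hypoxia-inducible factor, had 12.10, 11.57 and 12.38 in P28 corneas, against 9.09, 8.99 and 7.98 in E15.5 corneas (10.1-fold, adjusted p = 5.63e-09), while its relative Hif3a fell 3.45-fold and Hif1a was not called (-0.22). The inhibitor Thbs2 and the coreceptors Nrp1 and Nrp2 fell 5.72-, 3.64- and 5.4-fold. Kdr was also a member of the vascular endothelium list, in which 3 of 17 genes fell. The other 2, Cdh5 and Emcn, were not called without E15.5 replicate 1 (adjusted p = 0.255 and 0.37) nor without E15.5 replicate 2, P28 replicate 2 or P28 replicate 3, Emcn also not without P28 replicate 1, and the summed intensity of that list was 2444 to 2478 at P28, against 3540 to 5964 at E15.5. The part of vessel cells in the falls of Kdr and Vegfa was not tested.

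Fetal growth genes, many of them imprinted, fell in 14 of 24 cases and rose in 0 (1 higher at an unadjusted p under 0.05), with a median change of -2.15. Igf2, the fetal insulin-like growth factor, had 8.24, 7.34 and 7.56 in P28 corneas, against 12.38, 11.88 and 11.95 in E15.5 corneas (20.5-fold, adjusted p = 1.59e-10). Cdkn1c, an imprinted inhibitor of cyclin-dependent kinases, had 8.45, 8.08 and 7.68 in P28 corneas, against 12.09, 11.78 and 11.64 in E15.5 corneas (13.7-fold, adjusted p = 2.52e-11). Grb10, an imprinted brake on insulin signalling, had 6.89, 6.63 and 7.18 in P28 corneas, against 10.97, 10.51 and 10.64 in E15.5 corneas (14-fold, adjusted p = 2.73e-11). The arrays of both ages lay at least 2 log2 units apart for all 3. Plagl1 and Zim1, imprinted zinc finger genes, fell 13.7- and 11.9-fold, and Sox11, a factor of immature neural and mesenchymal cells, 19.7-fold. Ndn and Igf1r were not called, with changes of -0.68 and -0.35.

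Factors of the periocular mesenchyme, the source of stroma and endothelium, fell in 8 of 24 cases and rose in 0 (0 higher at an unadjusted p under 0.05). Twist2, a helix-loop-helix factor of mesenchyme, had 7.91, 7.69 and 8.36 in P28 corneas, against 11.25, 11.48 and 11.72 in E15.5 corneas (11.3-fold, adjusted p = 3.45e-07), and Prrx1, a homeobox factor of mesenchyme, 8.76, 8.51 and 8.93 in P28 corneas, against 11.95, 11.85 and 11.98 in E15.5 corneas (9.15-fold, adjusted p = 1.2e-05). Twist1 fell 7.01-fold, and Foxc2, a forkhead factor of the anterior segment, 5.26-fold, or 3.47-fold without E15.5 replicate 1. Snai2 was not called (-0.47). Of 45 Wnt genes 10 fell and 1 rose. Sfrp2, a secreted Wnt antagonist, had 9.72, 8.90 and 9.23 in P28 corneas, against 13.50, 12.91 and 12.76 in E15.5 corneas (13.7-fold, adjusted p = 4.03e-06), and Dkk2, which restrains Wnt signalling in the mouse cornea, 9.70, 9.70 and 9.48 in P28 corneas, against 12.65, 12.33 and 12.65 in E15.5 corneas (7.57-fold, adjusted p = 0.000125). The Wnt target genes Axin2 and Lef1 fell 4.63- and 5.57-fold and Nkd1, a feedback inhibitor, 5.73-fold, or 8.66-fold without P28 replicate 3. The antagonist Sfrp1 was not called (-0.28). The receptor Fzd4 rose 2.48-fold and Fzd3 fell 3.73-fold.

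Guidance cues for axons, which steer the sensory nerves into the cornea, fell in 11 of 30 cases and rose in 0 (2 higher at an unadjusted p under 0.05, and 1 rose with the values as deposited). Sema3a, a repellent for sensory axons, had 8.55, 8.69 and 8.24 in P28 corneas, against 11.15, 10.96 and 11.05 in E15.5 corneas (5.9-fold, adjusted p = 1.52e-08). Robo2, a receptor for slit repellents, had 7.16, 6.67 and 6.47 in P28 corneas, against 10.09, 10.00 and 9.94 in E15.5 corneas (9.46-fold, adjusted p = 1.83e-09). Epha7, Sema6a, Sema3c and Sema5a fell 9.29-, 7.1-, 4.29- and 3.64-fold. Gap43, a growth cone protein, had 8.38, 8.35 and 8.18 in P28 corneas, against 11.47, 11.29 and 11.30 in E15.5 corneas (8.29-fold, adjusted p = 1.33e-07). The list of neuron and Schwann cell genes had 3 of 18 lower and 1 higher (16.7% and 5.56%, against 5.4% and 4.9% of all genes). Without E15.5 replicate 1, 0 were higher. The summed intensity of that list was 4987 to 5488 at P28, against 8161 to 11500 at E15.5. Whether the fall of Tac1 goes with these cells was not tested.

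Of 49 cell cycle genes, 7 rose and 1 fell, with a median change of 0.55, and 44 of the 49 had a higher mean at P28, against 42.9% of all genes. Ccnd1, the G1 cyclin D1, had 11.53, 10.82 and 11.72 in P28 corneas, against 10.55, 9.70 and 8.94 in E15.5 corneas (3.1-fold, adjusted p = 0.00418), while Ccnd2, cyclin D2, had 10.55, 9.97 and 10.20 in P28 corneas, against 11.90, 11.87 and 11.79 in E15.5 corneas (3.06-fold, adjusted p = 4.44e-05). Anln, a ring protein of dividing cells, and Rrm2, a subunit of ribonucleotide reductase, rose 2.91- and 2.6-fold. The count rests on E15.5 replicate 2, which had the lowest summed intensity of these genes (20380, against 30590 and 22710 on the other E15.5 arrays and 31420 to 34070 at P28): without it 3 rose, and without E15.5 replicate 1, 12 did. Ccnb2, Ttk and Rrm1 (2.19-, 2.14- and 2.1-fold) were under the fold limit without replicate 2, and Rrm1 also without P28 replicate 2. Among inhibitors and growth arrest genes 5 of 17 rose, or 2 without E15.5 replicate 2, and 1, Cdkn1c, fell. Cdkn2b, an inhibitor of the kinases that pair with cyclin D, had 9.85, 9.92 and 9.76 in P28 corneas, against 8.54, 8.29 and 8.20 in E15.5 corneas (2.82-fold, adjusted p = 2.14e-07), and Gadd45a, a DNA damage gene, rose 2.86-fold.

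Leukocyte genes had 1 of 20 higher, near the 4.9% of all genes, and 3 lower, or 5 lower without P28 replicate 1. The count of higher genes rests on Itgam alone. At an unadjusted p under 0.05, 2 were higher and 13 lower, against 17% and 20.1% of all genes. Itgam, an integrin chain of myeloid cells, had 12.03, 11.72 and 9.21 in P28 corneas, against 7.65, 7.44 and 7.68 in E15.5 corneas (10.5-fold, adjusted p = 2.59e-06), or 19.4-fold without P28 replicate 3. Mrc1, the mannose receptor of resident macrophages, had 7.37, 7.03 and 6.58 in P28 corneas, against 10.19, 9.79 and 10.11 in E15.5 corneas (8.19-fold, adjusted p = 9.6e-07), and Tyrobp, a myeloid signalling adaptor, 8.54, 8.09 and 8.03 in P28 corneas, against 10.23, 9.77 and 10.09 in E15.5 corneas (3.51-fold, adjusted p = 2.95e-07). The integrin chain was thus higher where other macrophage genes were lower. The summed intensity of the list was 8660, 7356 and 4353 on the P28 arrays and 7507, 6454 and 7449 on the E15.5 arrays, which overlap.

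Several called genes belong to neighbouring tissues. Of 22 lens genes 6 rose and 0 fell (0 lower at an unadjusted p under 0.05). Crygd, a lens crystallin among the 15 largest rises, had 9.88, 13.08 and 9.79 in P28 corneas, against 5.56, 5.61 and 6.95 in E15.5 corneas (29.4-fold, adjusted p = 0.00636), and without P28 replicate 2 its change was 13.9-fold with an adjusted p of 0.0552. Of the 6 only Crygc, a crystallin with near-identical relatives, was called without that array (9.28-fold, adjusted p = 0.0327). Crygc had 10.66, 14.08 and 11.23 in P28 corneas, against 7.58, 7.65 and 7.97 in E15.5 corneas, so the other P28 arrays too were above the E15.5 arrays. Retinal genes rose in 4 of 14 cases, or 2 without P28 replicate 2, E15.5 replicate 1 or E15.5 replicate 2, led by Gngt1, a rod transducin chain, with 10.41, 10.85 and 9.36 in P28 corneas, against 6.28, 5.93 and 5.71 in E15.5 corneas (18.9-fold, adjusted p = 1.2e-05). Skeletal muscle genes fell in 6 of 31 cases, or 4 without E15.5 replicate 1 and 11 without E15.5 replicate 2. Actc1, cardiac actin made in young muscle, had 6.13, 5.45 and 6.62 in P28 corneas, against 12.08, 7.37 and 9.36 in E15.5 corneas (11.6-fold, adjusted p = 0.00199), or 4.90-fold without E15.5 replicate 1 and 25.1-fold without E15.5 replicate 2. Chrna1 and Myh2, of the muscle acetylcholine receptor and myosin, fell 7.28- and 5.33-fold with E15.5 arrays within 1 log2 unit of each other. Erythroid genes were called in 0 of 9 cases (2 lower at an unadjusted p under 0.05) and cartilage genes in 0 of 13 (3 lower). Without P28 replicate 2, 916 genes rose and 1013 fell in all, and without E15.5 replicate 1, 914 rose and 1023 fell. The counts for surface, corneal epithelium, stromal collagen and fetal growth genes were the same without either array.

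The arrays of the ages in between place the changes in time, as a description on genes chosen by both end points. The median riser stood at -0.27 relative to E15.5 at E14.5, -0.00 at E17.5, 0.13 at P3, 0.54 at P7, 0.74 at P14 and 1.5 at P28. The median faller stood at -0.53, -0.02, -0.36, -0.51, -0.71 and -1.62 at the same ages. Between neighbouring ages from E15.5 on, the largest step in the direction of the change fell between P14 and P28 for 563 of the 976 risers (57.7%) and for 791 of the 1076 fallers (73.5%). The step from P3 to P7 was the largest for 210 risers (21.5%) and that from E17.5 to P3 for 164 fallers (15.2%). The steps differ in length, the last being the longest, and the last shares the P28 arrays that chose the genes.

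Lists differed in their course. Stromal collagens stood at a median of -0.20 at E17.5, -0.29 at P3, -0.24 at P7 and -0.55 at P14, and at -2.44 at P28. Their median at E14.5 was -2.62, near that at P28. The E14.5 arrays carry lens and blood transcripts, with lens genes at a median of 2.68 there. The share of stroma in those samples and its collagen level therefore cannot be told apart. Surface genes went up at every age after E17.5, with -0.17 at E17.5, 0.35 at P3, 0.93 at P7, 1.70 at P14 and 2.79 at P28. Fetal growth genes were at 0.11 at E17.5, -0.36 at P3, -0.63 at P7 and -0.86 at P14 and ended at -2.15. Clock genes had most of their change by P7 (0.73), against 1.00 at P28. Aldh3a1 stepped between P3 (mean 9.75) and P7 (13.56), whereas Slurp1 had 8.21 at P7 and 9.01 at P14. Cell cycle genes were at a median of 1.78 at E14.5 and between 0.55 and 0.86 at all ages after E15.5, so by this median E15.5 was the lowest of the 7 ages. Their E14.5 value is again from arrays with lens and blood transcripts.

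**Figure D5:**
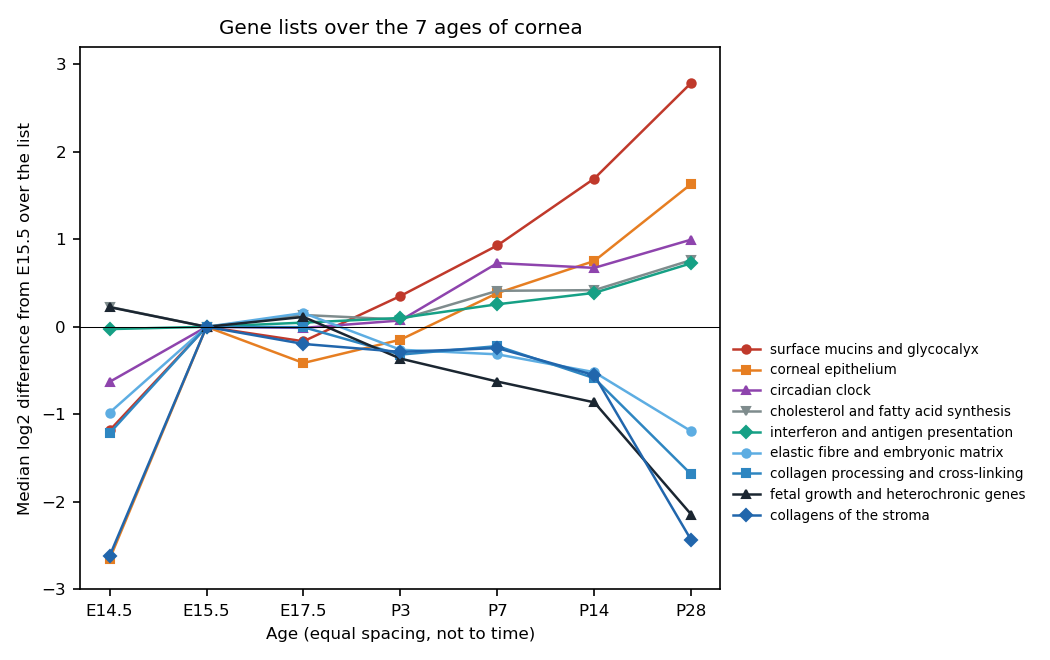
Median difference from E15.5 (vertical axis, log2) of 9 gene lists at the 7 ages of cornea (horizontal axis, equally spaced). Collagens of the stroma stay between -0.20 and -0.55 from E17.5 to P14 and reach -2.44 at P28, while surface genes climb to 2.79.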

How the data were processed

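Whole-cornea total RNA was measured on Affymetrix Mouse Gene ST arrays. Per the submitters' processing notes, the deposited linear intensities, 1 per probe set, came from the PLIER 2.0 algorithm, run in version 1.1.1 of Affymetrix Expression Console. How these arrays were normalized against each other is not stated in the labels. From these, log2(intensity + 16) was taken and quantile-normalized over all 35556 probe sets of the 27 arrays of cornea, trachea and lung. Of the probe sets, 21789 name 1 gene, 1621 name several and 12146 name none, and the last 2 kinds were left out. The brightest probe set stood for each of 19938 genes. P28 was tested against E15.5 with limma 3.58.1 in R 4.3.3 (lmFit and eBayes over 9 groups), with Benjamini-Hochberg adjustment over all genes. The fit was tested on simulated data. The number of arrays, 3 per age, limits the precision.

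The genes, lists and comparison were chosen with earlier results of these data known. The text names the 15 largest called rises and falls whose arrays do not overlap, and from each list up to 6 called genes in each direction with the largest changes and up to 3 others with the highest level. Genes named outside this rule are said to be so. Alternatives were other scalings, pseudocounts, probe set rules, array sets and limits, and each array left out in turn. Arrays of both ages share replicate numbers, and the labels do not say whether equal numbers mark anything shared. Deviations of same-numbered arrays from their group means correlated by -0.019, 0.047 and -0.046, so no pairing was seen in the values. The arrays were treated as unpaired, with the replicate number as a block as an alternative.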

Additional observations from a re-analysis of the deposited data

How the results depend on the processing

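Of 873 genes followed over the alternatives, 306 were called in the results above, and none changed direction where it was called. Of their values 15742 lay on the same side of the limits as above, 322 below and 306 past them. The first number includes genes called in neither setting, and the others include the settings that changed the fold limit itself. Without a fold limit 5629 genes passed, 2644 higher and 2985 lower at P28, and with a 4-fold limit 636 passed, 275 higher and 361 lower. With 1 array left out in turn, the total ran between 1929 and 2085, the higher genes between 912 and 1041 and the lower between 1013 and 1131. The balance of directions depended on the scaling: 47.6% of called genes were higher in the results above, 54.5% with the values as deposited (1193 higher, 997 lower) and 56.2% with median scaling (1238 and 967). With the replicate number as a block 2054 genes were called, 974 higher and 1080 lower, and with the block and the 6 arrays alone, an alternative chosen after seeing the data, 2045. Leaving trachea, lung and E14.5 arrays out of the fit, also chosen after seeing the data, gave 2046. Other settings gave 1895 to 2216. List counts of 1 in the text became 0, 2 or, for pigment cells, 5 under some of these for Wnt, proteoglycan, metalloproteinase, pericyte, pigment cell, glycolysis, clock, neuron and basal epithelial genes. Arrays give no count of molecules, so dim genes near the floor are the least certain, and probe sets of near-identical genes can share signal.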

Other observations

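Conjunctival goblet cell and lacrimal genes were called in 1 of 14 cases (7.14%), against 10.3% of all genes called in either direction. Krt7, a keratin of simple and conjunctival epithelia, had 10.42, 9.46 and 7.38 in P28 corneas, against 10.52, 11.31 and 11.25 in E15.5 corneas, and was not called without P28 replicate 3. Of 13 smooth muscle and pericyte genes 1 rose and 2 fell (7.69% and 15.4%, against 4.9% and 5.4% of all genes). Pdgfrb, a growth factor receptor of pericytes and fibroblasts, had a change of -1.98 and Smtn, a smooth muscle protein, of -1.20. Of 12 pigment cell genes 1 rose and 1 fell (8.33% each, near the 4.9% and 5.4% of all genes), or 5 fell without E15.5 replicate 3. Rpe65, the retinoid isomerase of pigment epithelium, had a change of 1.57. Tyr, the enzyme that starts melanin synthesis, had a change of -1.49 and was not called without E15.5 replicate 1, P28 replicate 2 or P28 replicate 3. Sex-linked genes were called in 0 of 4 cases, with 0 at an unadjusted p under 0.05 in limma. E15.5 replicate 2 carried both the X-inactivation RNA Xist at 8.72 and the Y-linked Eif2s3y at 10.51.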
